A study of Mus musculus with 6 samples.

Results

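Store-operated calcium entry refills the endoplasmic reticulum (ER) with calcium from outside the cell, and a slow leak lets calcium out again. The 9 genes described here encode proteins of both processes. They were chosen by gene name, though with earlier results of these data known: Stim1, Stim2, Orai1, Orai2, Orai3, Saraf, Tmco1, Tmem38a and Tmem38b. Each name matched 1 row of the deposited count table, so that 9 of 54532 rows were used, and all 9 had enough counts to be tested.

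The EV_Tm group comprised 3 libraries of NIT-1 cells kept for 16 h with extracellular vesicles (from mesenchymal stem cells of human umbilical cord) and then given Tm for 8 h. The PBS_Tm group comprised 3 libraries of the same line given PBS for 16 h and then Tm for 8 h. Tm is taken here as tunicamycin, which blocks N-linked glycosylation and so burdens protein folding in the ER. One label calls the PBS_Tm samples untreated, while titles and design text assign them to the ER stress arm, which was followed here. NIT-1 is an established beta-cell line from a mouse insulinoma driven by a viral oncogene under an insulin promoter. Both groups had Tm and no library without it was analysed here, and the comparison therefore sets vesicles against PBS with Tm in both. The labels do not say whether libraries of a group came from separate cultures, and p-values then measure only the spread between these libraries, which may be technical.

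STIM proteins sit in the ER membrane and sense calcium in its lumen. When stores fall they gather beneath the plasma membrane and open ORAI channels there, and SARAF slows the resulting entry. TMCO1 and the TRIC channels, encoded by Tmem38a and Tmem38b, act at the ER itself: TMCO1 is described as a channel that opens when the store is overfilled, and TRIC channels carry potassium ions that balance charge as calcium leaves. In beta cells this entry is known to help keep the ER store filled and to contribute to calcium signals after stimulation.

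The libraries held 28654248 to 32550268 counts, and 16844 genes were tested. Of these, 47.4% differed between the groups by edgeR's quasi-likelihood test at an adjusted p under 0.05 (Benjamini-Hochberg). In EV_Tm 22.6% were higher and 24.7% were lower. The labelled cell type was not borne out by its markers: none of the 20 beta-cell genes examined had enough counts to be tested, and 11 of them, Ins2, Pdx1 and Nkx6-1 included, had 0 counts in all 6 libraries. Their summed level was 0.409 to 1.5 CPM in EV_Tm and 0.488 to 1.21 CPM in PBS_Tm. Levels are given as CPM, counts scaled to a common library size. A count of 0 allows up to 3 counts in a library, or 0.0922 to 0.105 CPM, a limit that covers counting error only. Summed over a list, markers of fibroblasts stood at 698 to 749 CPM in EV_Tm and 626 to 639 CPM in PBS_Tm, nearly all of it Vim, with Lum and Fn1 at or under 3 counts in every library, and of 5 tested among 10 listed 2 were higher and 2 lower. Macrophage genes summed to 9.33 to 12.7 CPM in EV_Tm and 8.30 to 8.85 CPM in PBS_Tm, with Tyrobp at 0. Nearly all of the sum was Cd68, at means of 5.36 CPM in EV_Tm and 3.84 in PBS_Tm, and Cd14, at 5.12 and 4.78. Of 2 tested among 8 listed 1 was higher (Cd68). Endothelial genes summed to 37.4 to 38.5 CPM in EV_Tm and 37.6 to 38.8 CPM in PBS_Tm, with Kdr, Emcn and Cldn5 at 0. Most of the sum was Pecam1, at means of 24.5 CPM in EV_Tm and 28.5 CPM in PBS_Tm. In the same order Vwf stood at 7.48 and 6.18 CPM and Cdh5 at 5.14 and 3.97 CPM. Of 4 tested among 7 listed 1 was lower (Pecam1). Other islet and exocrine pancreas genes summed to 50.8 to 54.8 CPM in EV_Tm and 45.8 to 54.9 CPM in PBS_Tm. Nearly all of this sum was Cela1, at means of 32.1 CPM in EV_Tm and 27.1 CPM in PBS_Tm, and Hhex, at 19.0 and 22.5 CPM. Sst, Prss2, Cpa1, Amy2a5 and Ptf1a were at 0. Of 4 tested among 12 listed 1 was higher (Cela1) and 1 lower (Hhex). The part of other cell types in the results below was not tested. In bulk libraries, fewer cells of a type and less RNA per cell cannot be told apart.

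Of the 9 genes, 5 fell and 1 rose in vesicle-treated cells, and 3 did not pass the test. Saraf, Orai2, Orai1, Tmem38b and Stim1 fell, and Stim2 rose. Tmco1, Tmem38a and Orai3 did not pass. The share called was 66.7%, against 47.4% of all genes tested, and the share lower was 55.6%, against 24.7%, though 66.7% and 55.6% rest on 9 genes. The ranges of EV_Tm and PBS_Tm were separate for 6 of the 9 genes, and for 54.5% of all genes. The changes were moderate: the log2 fold changes lay between -0.74 and 0.24, with a median of -0.19 against 0.01 over all genes, and none reached 2-fold.

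**Figure D1:**
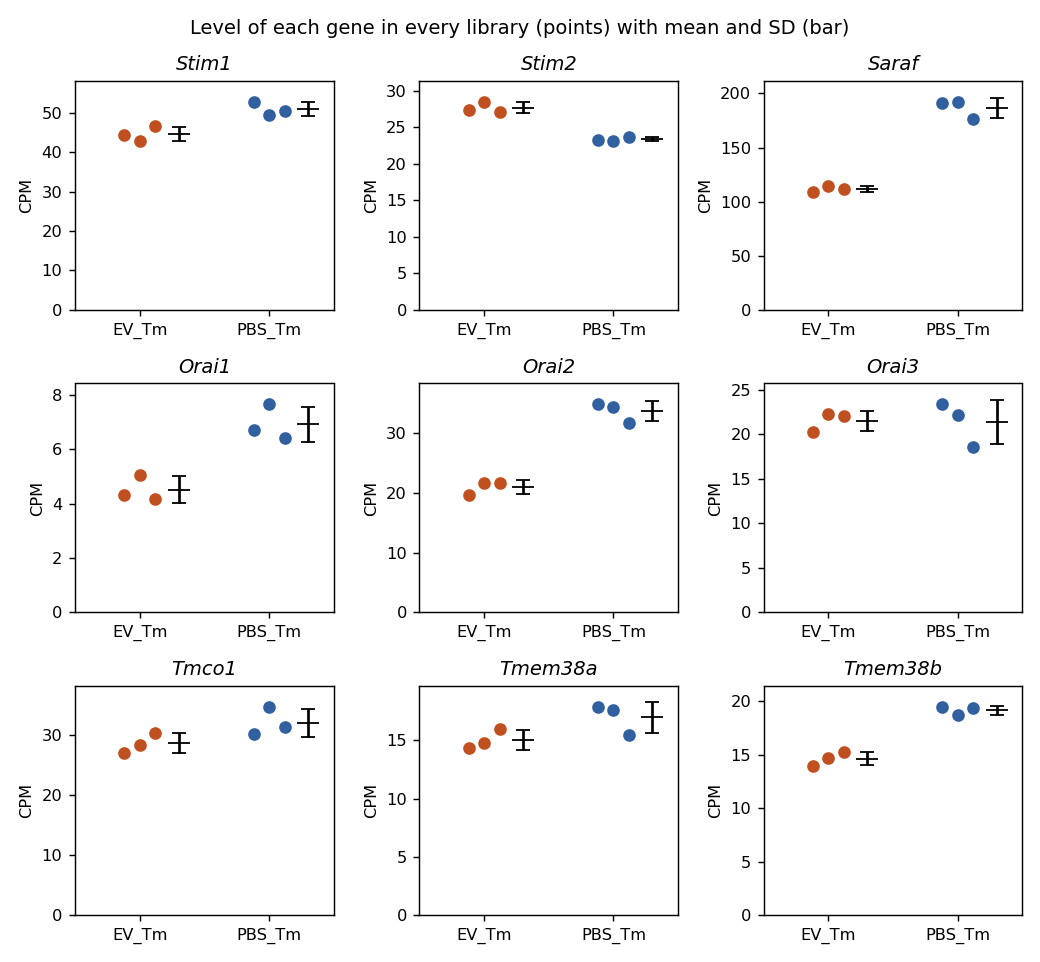
CPM (TMM-scaled, linear axis from 0) of each of the 9 genes in the 3 EV_Tm libraries and the 3 PBS_Tm libraries, 1 point per library, with the mean and SD beside them. The groups lie apart for Stim1, Stim2, Saraf, Orai1, Orai2 and Tmem38b and overlap for Orai3, Tmco1 and Tmem38a.

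The 2 calcium sensors moved in opposite directions. Stim1 (ENSMUSG00000030987, chromosome 7, 102267806 to 102437319, plus strand, coordinates here and below on GRCm38) encodes the sensor that triggers the bulk of store-operated entry in most cells. It stood at 44.2, 42.9 and 46.5 CPM in EV_Tm, against 52.7, 49.4 and 50.5 CPM in PBS_Tm. All 3 EV_Tm values lay below all 3 PBS_Tm values, by a narrow margin. Stim1 fell by 0.19 ± 0.06 log2 units (SE), and the adjusted p by edgeR was 0.0107. Without EV_Tm replicate 2 the call was lost (edgeR adjusted p = 0.0568, the largest of 0.00822 to 0.0568 over the alternatives tried).

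Stim2 (ENSMUSG00000039156, chromosome 5, 53998499 to 54121057, plus strand) encodes the sensor that responds to smaller losses of store calcium and keeps its resting level. It stood at 27.4, 28.4 and 27.0 CPM in EV_Tm, against 23.2, 23.1 and 23.6 CPM in PBS_Tm. Every EV_Tm library was above every PBS_Tm library, and Stim2 was the only one of the 9 genes that rose, by 0.24 ± 0.07 log2 units (SE; adjusted p = 0.0088 by edgeR).

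Divided by gene length, Stim1 was below Stim2 in each EV_Tm library and above it in each PBS_Tm library. In CPM, which is not divided by length, Stim1 was above Stim2 in every library. The change of order thus rests on the lengths used, 10371 bases for Stim1 and 5133 for Stim2. The ratio of Stim1 to Stim2 per length was 0.799, 0.746 and 0.853 in EV_Tm, against 1.12, 1.06 and 1.06 in PBS_Tm. The mean log2 ratio was -0.33 ± 0.10 in EV_Tm and 0.11 ± 0.05 in PBS_Tm (SD, n = 3 each). The difference of -0.44 gave a two-sided p of 0.1 in an exact permutation test, the smallest that 3 against 3 libraries can give. Gene length cancels out of this difference, so leaving counts undivided by length could not change it.

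The bases upstream of the sensor genes are shown because the sensors differed in opposite directions between EV_Tm and PBS_Tm, which both had Tm. In ER stress the factors XBP1 and ATF6 act on sites that hold the half-site CCACG. Whether these factors bear on the sensor genes here was not tested. Capitals mark CCACG or its reverse complement CGTGG. The Stim1 stretch is chr7:102267569-102267805 and the Stim2 stretch chr5:53998273-53998498, both on the plus strand of GRCm38.p6.
Stim1: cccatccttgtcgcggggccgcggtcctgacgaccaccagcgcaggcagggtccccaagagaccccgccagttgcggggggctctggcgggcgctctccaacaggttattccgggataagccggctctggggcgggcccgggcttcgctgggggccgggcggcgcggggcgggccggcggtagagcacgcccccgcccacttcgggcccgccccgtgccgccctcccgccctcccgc
Stim2: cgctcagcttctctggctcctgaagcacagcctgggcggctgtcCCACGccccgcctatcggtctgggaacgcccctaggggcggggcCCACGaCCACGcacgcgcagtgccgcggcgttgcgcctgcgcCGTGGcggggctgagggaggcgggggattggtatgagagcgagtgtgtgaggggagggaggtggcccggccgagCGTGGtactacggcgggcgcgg
Matches were counted in the 250 bases before each RefSeq start site, and bases of these that lie inside the annotated gene (13 for Stim1 and 24 for Stim2) are not printed. The Stim1 window held no half-site and the Stim2 window held 5, the outermost beginning 206 bases and the innermost 46 bases before the start site. Among 32841 promoter windows of the same length in the RefSeq table, 28.4% held at least 1 half-site and 0.484% held 4 or more. Both windows are rich in G and C, at 78.4% for Stim1 and 74.8% for Stim2, against a median of 52.4% over all windows. The shares of 28.4% and 0.484% were not matched for this content. The match of letters is a description and does not show binding.

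Saraf was the most abundant of the 9 genes and had the largest difference among them. Saraf (ENSMUSG00000031532, chromosome 8, 34154575 to 34170821, plus strand) encodes the ER membrane protein that associates with STIM and turns entry down once stores refill. It stood at 109, 115 and 112 CPM in EV_Tm, against 192, 192 and 176 CPM in PBS_Tm. The lowest PBS_Tm library was well above the highest EV_Tm library. Saraf was 1.67-fold lower in EV_Tm, a log2 fold change of -0.74 ± 0.05 (SE; adjusted p = 1.51e-12 by edgeR), and 13.9% of all genes tested had a larger absolute change. Its level per length stood at 8.90 ± 0.51 times that of Stim1 in EV_Tm and 13.0 ± 0.7 times in PBS_Tm (SD, n = 3 each), a ratio taken after the values were seen.

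Of the plasma membrane channels, Orai1 fell 1.53-fold and Orai2 1.60-fold while Orai3 did not pass. Orai1 (ENSMUSG00000049686, chromosome 5, 123015074 to 123030456, plus strand) encodes the pore subunit of the classical calcium-release-activated current. It was the least abundant of the 9 genes, with 4.30, 5.07 and 4.16 CPM in EV_Tm, against 6.70, 7.65 and 6.41 CPM in PBS_Tm. The groups lay apart, and behind them stood 134, 147 and 134 counts in EV_Tm and 213, 231 and 206 counts in PBS_Tm, and its SE was the largest of the 9. Orai1 was 1.53-fold lower, with a log2 fold change of -0.62 ± 0.15 (SE; adjusted p = 0.00137 by edgeR).

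Orai2 (ENSMUSG00000039747, chromosome 5, 136147459 to 136170713, minus strand) encodes a related subunit that can temper entry through ORAI1 when the proteins assemble together. It stood at 19.6, 21.6 and 21.6 CPM in EV_Tm, against 34.7, 34.3 and 31.7 CPM in PBS_Tm. No EV_Tm library came near the PBS_Tm range. Orai2 was 1.60-fold lower, with a log2 fold change of -0.68 ± 0.08 (SE; adjusted p = 6.10e-08 by edgeR), a change exceeded in size by 16.1% of all genes tested.

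Orai3 (ENSMUSG00000043964, chromosome 7, 127769815 to 127775150, plus strand) is found in mammals and encodes a subunit that also takes part in store-independent channels. It stood at 20.2, 22.2 and 22.0 CPM in EV_Tm, against 23.4, 22.1 and 18.6 CPM in PBS_Tm. The ranges overlapped fully, with the PBS_Tm libraries spread more widely. The log2 fold change was 0.01 with a 95% interval of -0.18 to 0.20 (edgeR adjusted p = 0.947), and its sign differed between the alternatives tried.

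**Figure D2:**
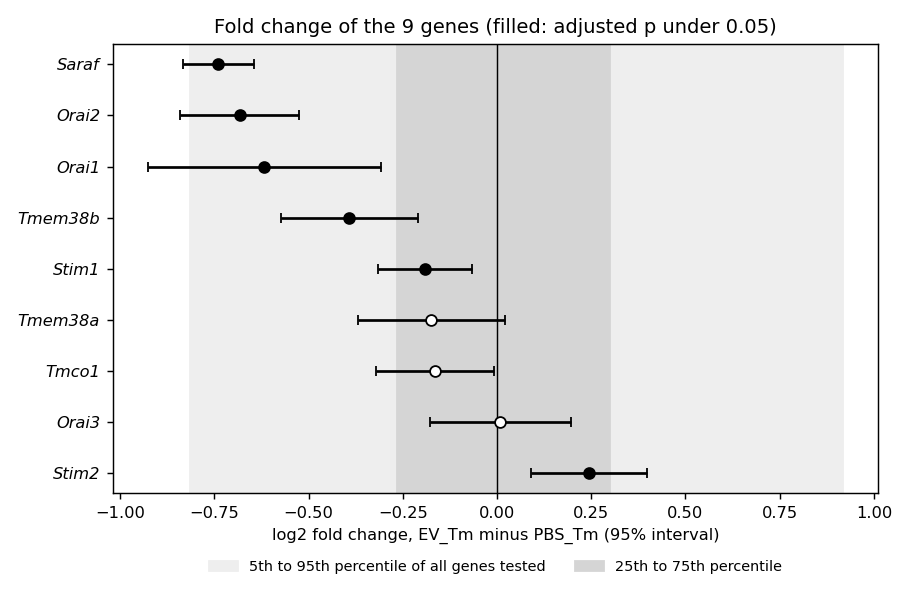
Log2 fold change (EV_Tm minus PBS_Tm) of the 9 genes with 95% intervals from the edgeR fit, filled where the adjusted p was under 0.05, over grey bands that hold the middle 50% and 90% of all 16844 genes tested. Saraf, Orai2, Orai1 and Tmem38b lie left of the inner band, which spans -0.27 to 0.30, and no gene lies outside the outer band, which spans -0.81 to 0.92.

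Per length, Orai3 made up most of the ORAI transcripts in both groups, and more of them in EV_Tm. Its share of the summed ORAI level was 64.9%, 64.3% and 65.7% in EV_Tm, against 55.8%, 53.5% and 52.0% in PBS_Tm. That of Orai2 was 22.3% ± 0.4 in EV_Tm and 29.9% ± 1.2 in PBS_Tm (SD, n = 3 each). Orai1 held 12.7% ± 1.1 in EV_Tm and 16.3% ± 1.2 in PBS_Tm (SD, n = 3 each). For each of the 3 shares per length the groups lay apart, and the exact permutation test gave its smallest two-sided p of 0.1. The Orai1 share differed by -3.59 percentage points per length, but by -1.58 points when counts were not divided by length (exact permutation p = 0.2). In PBS_Tm undivided counts put Orai2 (1105, 1036 and 1019) above Orai3 (743, 668 and 597). In EV_Tm they were close, at 610, 627 and 695 for Orai2 and 629, 645 and 709 for Orai3. That Orai3 made up most thus rests on the lengths used, 2141 bases for Orai3 and 6077 for Orai2. Shares that sum to a whole move together, so they are not separate results.

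**Figure D3:**
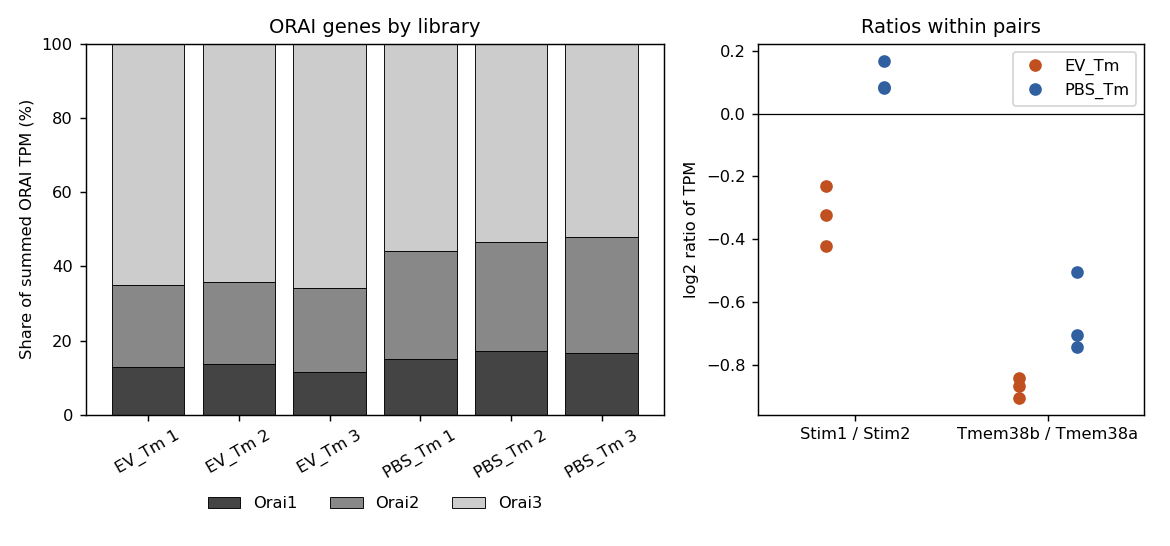
Left, share of the summed length-normalised ORAI level (TPM, percent) taken by Orai1, Orai2 and Orai3 in each library, EV_Tm libraries first. Right, log2 ratio of the TPM of Stim1 to Stim2 and of Tmem38b to Tmem38a, 1 point per library. Orai3 takes 64.3% to 65.7% in EV_Tm and 52.0% to 55.8% in PBS_Tm, and both ratios are lower in every EV_Tm library than in every PBS_Tm library.

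Upstream windows of Orai1 and Orai2 are shown as those of the ORAI genes that fell, with the same marking of CCACG and CGTGG. The Orai1 stretch is chr5:123014824-123015073 on the plus strand and the Orai2 stretch chr5:136170714-136170906 on the minus strand of GRCm38.p6, each written in the direction of its gene.
Orai1: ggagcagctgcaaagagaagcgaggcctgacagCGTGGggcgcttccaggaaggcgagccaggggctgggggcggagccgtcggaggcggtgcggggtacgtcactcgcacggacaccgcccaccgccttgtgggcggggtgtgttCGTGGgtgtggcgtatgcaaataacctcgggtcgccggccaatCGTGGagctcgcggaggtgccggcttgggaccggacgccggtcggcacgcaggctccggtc
Orai2: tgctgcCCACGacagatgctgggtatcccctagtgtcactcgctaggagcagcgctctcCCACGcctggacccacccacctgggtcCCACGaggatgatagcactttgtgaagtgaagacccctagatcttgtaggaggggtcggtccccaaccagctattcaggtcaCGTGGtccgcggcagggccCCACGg
Of the 250 bases before the start site all are printed for Orai1 and 193 for Orai2, whose other 57 lie inside the annotated gene. Orai1 held 3 half-sites and Orai2 held 5, against 2.13% of all windows with 3 or more and 0.484% with 4 or more. G and C made up 70.8% of the Orai1 window and 63.6% of the Orai2 window, against a median of 52.4%. The shares over all windows were not matched for this content. Orai2 also held 2 copies of CACGTG, a palindrome that can overlap the half-site and was found at least once in 6.02% of windows. The printed stretch shows 1 of these copies, and the other lies in the bases not printed. Orai3, which did not pass the test, held 2 half-sites, Tmco1 held 1, in a window inside the annotated gene, and Tmem38a none. None of these 7 windows held the full ERSE or ERSE-II elements of ER stress genes, the UPRE core TGACGTGG or the amino acid response core TGATGCAA, all searched on both strands. Over all windows ERSE was found in 0.113%, ERSE-II in 0.0304%, TGACGTGG in 0.563% and TGATGCAA in 0.792%. ERSE, ERSE-II and TGACGTGG all contain a half-site.

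At the ER membrane the leak and counter-ion genes had smaller log2 fold changes than Saraf and the ORAI genes that fell. Tmco1 (ENSMUSG00000052428, chromosome 1, 167308378 to 167333978, plus strand) had 27.0, 28.3 and 30.3 CPM in EV_Tm, against 30.2, 34.7 and 31.3 CPM in PBS_Tm. The highest EV_Tm library just exceeded the lowest PBS_Tm library. Its log2 fold change was -0.16 with a 95% interval of -0.32 to -0.0082 (edgeR adjusted p = 0.0784), an interval not corrected for the number of genes. Leaving out PBS_Tm replicate 1 brought it past the threshold (edgeR adjusted p = 0.0427, with 0.0427 to 0.282 over the alternatives tried).

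Tmem38b fell and Tmem38a did not pass. Tmem38b (ENSMUSG00000028420, chromosome 4, 53826045 to 53862019, plus strand) encodes TRIC-B, the form found in most tissues, mutated in a recessive brittle bone disease in humans. It stood at 14.0, 14.7 and 15.2 CPM in EV_Tm, against 19.5, 18.7 and 19.3 CPM in PBS_Tm. The groups lay apart with little spread within either. Tmem38b was 1.31-fold lower, with a log2 fold change of -0.39 ± 0.09 (SE; adjusted p = 6.61e-04 by edgeR).

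Tmem38a (ENSMUSG00000031791, chromosome 8, 72572055 to 72587282, plus strand) encodes TRIC-A, known above all from muscle. It stood at 14.3, 14.8 and 16.0 CPM in EV_Tm, against 17.9, 17.6 and 15.4 CPM in PBS_Tm. One PBS_Tm library lay within the EV_Tm range. The log2 fold change was -0.17 with a 95% interval of -0.37 to 0.02 (edgeR adjusted p = 0.139). Per length, Tmem38b stood at 0.549, 0.559 and 0.534 of Tmem38a in EV_Tm, against 0.613, 0.598 and 0.706 in PBS_Tm. The mean log2 ratios differed by -0.22 and the exact permutation test gave its smallest two-sided p of 0.1. In undivided counts Tmem38b (435, 425 and 490) was close to Tmem38a (446, 428 and 516) in EV_Tm. In PBS_Tm it was above Tmem38a, at 620, 564 and 622 against 569, 531 and 496. The low level of Tmem38b beside Tmem38a thus rests on the lengths used, 3807 and 2142 bases.

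Ordered by TPM, which divides counts by gene length and scales them to a common total, Saraf led by a wide margin in both groups. In EV_Tm it stood at 132 ± 4 TPM (SD, n = 3), followed by Orai3 at 34.7 ± 1.8, Tmem38a at 24.3 ± 1.4, Tmco1 at 20.7 ± 1.2 and Stim2 at 18.6 ± 0.5 TPM. Stim1 at 14.9 ± 0.6, Tmem38b at 13.3 ± 0.6, Orai2 at 11.9 ± 0.7 and Orai1 at 6.80 ± 0.74 TPM came last, and no neighbours in this order overlapped. In PBS_Tm the order began in the same way, with Saraf at 225 ± 8 TPM (SD, n = 3), Orai3 at 35.2 ± 3.8, Tmem38a at 28.0 ± 1.9 and Tmco1 at 23.8 ± 1.5 TPM. It then differed, with Orai2 at 19.5 ± 0.7, Tmem38b at 17.8 ± 0.6, Stim1 at 17.3 ± 0.7, Stim2 at 16.1 ± 0.4 and Orai1 at 10.6 ± 0.9 TPM, and here Tmem38b and Stim1 overlapped. Stim2 thus ranked number 5 in EV_Tm and number 8 in PBS_Tm, and Orai2 number 8 in EV_Tm and number 5 in PBS_Tm.

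**Figure D4:**
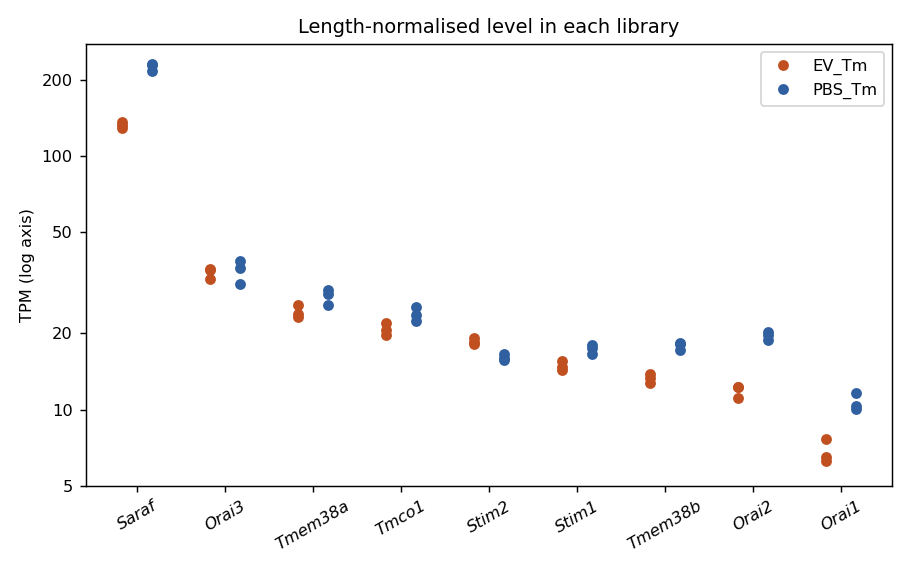
TPM of the 9 genes on a log axis, 1 point per library, with EV_Tm left of PBS_Tm for each gene and genes ordered by their EV_Tm mean. Saraf averages 132 TPM in EV_Tm and 225 TPM in PBS_Tm, and the other 8 genes lie between 6.27 and 38.5 TPM.

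As fixed points for the ER state, 4 single genes were read beside the 9, which is no test of a pathway. Hspa5, the ER chaperone BiP, was at 952 ± 5 CPM in EV_Tm and 10012 ± 256 CPM in PBS_Tm (SD, n = 3 each), 10.5-fold lower, and Xbp1, a transcription factor of the stress response, 3.58-fold lower. Calr, the main calcium buffer of the ER lumen, was 4.30-fold lower and Atp2a2, the SERCA pump that fills the store, 2.86-fold lower. Each of these 4 differences was larger than that of any of the 9 genes. Whether they bear on the 9 genes was not tested.

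Proteins reported to bind or tune STIM and ORAI went both ways. Of 20 tested genes on that list, 6 were higher, 7 lower and 7 short of the threshold (median log2 fold change -0.04), against 22.6% higher and 24.7% lower over all genes. Pdia3, the disulfide isomerase ERp57, which is reported to act on the luminal part of STIM1, was at 483 ± 7 CPM in EV_Tm and 1735 ± 25 CPM in PBS_Tm (SD, n = 3 each), 3.59-fold lower. Selenok, an ER selenoprotein needed for calcium entry in immune cells, was 2.54-fold lower. Cav1, the caveola scaffold that binds ORAI1, was 1.75-fold higher, at 366 ± 5 CPM in EV_Tm and 210 ± 6 CPM in PBS_Tm (SD, n = 3 each). Adcy8 had 2 counts in all and was not tested.

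At contacts between ER and plasma membrane, where STIM meets ORAI, 5 of 19 tested genes were higher, 9 lower and 5 short of the threshold (median log2 fold change -0.19). The shares were 26.3% higher and 47.4% lower, against 22.6% and 24.7% of all genes. The 9 lower genes were Esyt1, Esyt3, Gramd1b, Osbpl5, Osbpl8, C2cd2, C2cd2l, Vapa and Vapb, between 1.14-fold and 4.43-fold lower. Esyt3, an extended synaptotagmin that tethers the membranes, was at the low level of 0.678 ± 0.363 CPM in EV_Tm and 3.03 ± 0.89 CPM in PBS_Tm (SD, n = 3 each), 4.43-fold lower (adjusted p = 7.85e-06 by edgeR). C2cd2l, a lipid transfer protein also called TMEM24, was 1.52-fold lower. Among the higher genes, Ano8, a tether, was 1.88-fold higher, and the lipid transfer proteins Pitpnm2 and Pitpnm3 were 1.77-fold and 1.55-fold higher. Gramd1a, a sterol transporter, was 1.20-fold higher, while its relative Gramd1b was 1.36-fold lower. Pitpnm1 passed the test at a log2 difference of 0.13 ± 0.05 (SE; adjusted p = 0.0359 by edgeR), a call that was lost without EV_Tm replicate 2 or 3 or PBS_Tm replicate 2 or 3 (adjusted p from 0.0728 to 0.249 by edgeR) and with no filter on low counts (0.0571). Gramd2, Esyt2, Jph4 and Gramd1c were among those that did not pass, and Jph1, Jph2, Jph3 and Kcnb2 had too few counts to be tested.

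TRPC channels are another proposed route of calcium entry. Trpc2, Trpc4 and Trpc6 had 0 counts in all libraries, Trpc1, Trpc7 and Trpc5 had 2, 13 and 15 counts over all 6, and none of these genes had enough counts to be tested. Of the Homer scaffolds, Homer1 passed narrowly at a log2 difference of -0.19 ± 0.08 (SE; adjusted p = 0.0488 by edgeR), and Homer2 and Homer3 did not pass. The Homer1 call was lost without EV_Tm replicate 1 or 2 or PBS_Tm replicate 1 or 3 (edgeR adjusted p 0.0542 to 0.192), and under 5 of the other settings, such as library size alone (edgeR adjusted p = 0.125).

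Other proteins reported to let calcium out of the ER at rest also went both ways, with 3 of 12 tested genes higher, 5 lower and 4 not passing (median log2 fold change -0.17). The share higher, 25%, was near the 22.6% of all genes, and the share lower was 41.7%, against 24.7%. Sec61a1, the pore of the protein translocon, which can leak calcium when idle, was at 262 ± 9 CPM in EV_Tm and 628 ± 10 CPM in PBS_Tm (SD, n = 3 each), 2.40-fold lower, and its partner Sec61b was 1.46-fold lower. Sec61a2, a second form of the pore, was 1.21-fold higher. Tmbim1 was 1.23-fold lower, and Tmbim6, the leak protein also called BI-1, was 1.14-fold higher, at 384 ± 16 CPM in EV_Tm and 338 ± 18 CPM in PBS_Tm (SD, n = 3 each). Psen2 was 1.20-fold higher, a call that was lost without EV_Tm replicate 1 or 3 or PBS_Tm replicate 2 or 3 (edgeR adjusted p 0.0788 to 0.109) and with no filter on low counts (0.0726). Tmbim4 was 1.15-fold lower, a call that was lost without EV_Tm replicate 1 or 2 or PBS_Tm replicate 2 (edgeR adjusted p of at most 0.0774). Pkd2, Sec61g, Grina and Faim2 did not pass, though Grina did, with a positive log2 fold change, without PBS_Tm replicate 1 (edgeR adjusted p = 0.0361), with library size alone (0.0263) and among protein-coding genes (0.0222). Pkd2 likewise passed with a positive log2 fold change without PBS_Tm replicate 3 (edgeR adjusted p = 0.00455), with library size alone (0.0193), among protein-coding genes (0.0154) and at a minimum of 1 CPM in 3 libraries (0.0451).

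TMCO1 also belongs to a translocon that inserts multi-spanning membrane proteins, and 5 of its 6 tested partner genes passed the test, where 47.4% of all genes did. Wdr83os, Tmem147 and Ncln rose, Ccdc47 and Nomo1 fell, and Rab5if did not pass (median log2 fold change 0.18), though it did, with a positive value, with library size alone (edgeR adjusted p = 0.0495) and among protein-coding genes (0.0430). Wdr83os was at 22.7 ± 1.8 CPM in EV_Tm and 13.8 ± 1.3 CPM in PBS_Tm (SD, n = 3 each), 1.64-fold higher. Ccdc47, which itself binds calcium, was at 143 ± 4 CPM in EV_Tm and 216 ± 10 CPM in PBS_Tm (SD, n = 3 each), 1.51-fold lower, and Nomo1 was 1.32-fold lower.

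**Figure D5:**
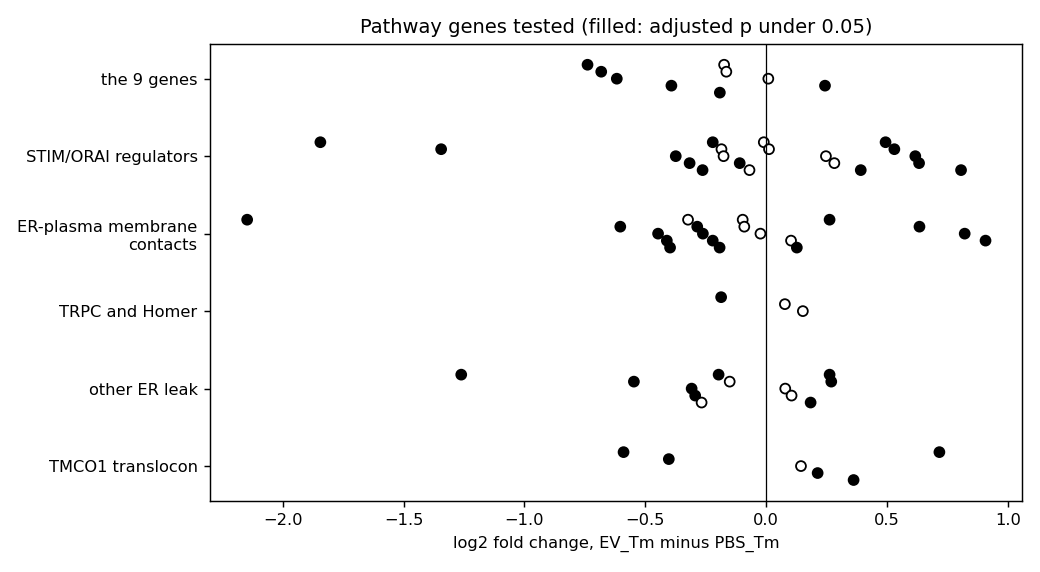
Log2 fold change (EV_Tm minus PBS_Tm) of each tested gene among the 9 and on 5 related lists, 1 point per gene, filled where the adjusted p was under 0.05; height within a row has no meaning. Every list except that of TRPC and Homer genes holds filled points on both sides of 0.

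The genes whose levels followed Saraf most closely over the 6 libraries were Lman2, Phlda3, Fam104a, Snd1 and Serpinh1, with Pearson's r of log2 CPM from 0.9992 to 0.9999. Lman2 stood at 181 ± 3 CPM in EV_Tm and 274 ± 11 CPM in PBS_Tm (SD, n = 3 each). The libraries form 2 groups, so that any gene with a clear difference between them scores high: 1776 of 16843 other genes (10.5%) had r above 0.95 with Saraf.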

How the data were processed

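Bulk RNA-seq libraries of 6 samples were compared, 3 EV_Tm and 3 PBS_Tm, grouped by their titles. Per the labels' protocols, adaptors were removed and reads aligned with HISAT2 2.2.1. The counting tool named in the submitters' processing notes is featureCounts 2.0.6. The authors deposited raw counts per gene, with no normalization. The sources used here do not give the strand setting or the treatment of multi-mapping reads. Counts of overlapping genes are therefore uncertain: Orai1 shares 7 exon bases with Gm2479 (2 counts) and Tmem38b 119 with n-R5s185 (0 counts). The deposited table also gives other values, gene start, end and length in bases; the length of each of the 9 genes equals its summed exons in GENCODE M21. The notes name mm39, but 98.3% of shared gene IDs have the GRCm38 start and end, and coordinates are read as GRCm38.

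Counts were fitted with edgeR 4.0.16 in R 4.3.3 (TMM, filterByExpr, quasi-likelihood F test, two-sided, Benjamini-Hochberg over 16844 genes). CPM is scaled by TMM, except marker sums and the limits of 3 counts, which use plain library size; TPM uses the deposited length. Fold changes are EV_Tm minus PBS_Tm, and SE was derived by dividing the fold change by the root of its F. Pairs of libraries within a group gave a chi-square of 3.68 to 7.68 per gene on average, above sampling noise. All 6 were therefore treated as separate libraries, which does not show that they came from separate cultures. Scripts were tested on simulated data. The genes, lists and tests were chosen with earlier results of these data known. Named genes are the 9, the 3 with the smallest p on each list, any side of a list with 5 or fewer, the 5 genes most like Saraf, and Hspa5, Xbp1, Calr and Atp2a2; Esyt3 and the other lower genes of its list, and genes named for low counts or as markers, were named after their values were seen. Some genes of the lists are not reported here by name. Of the 9, 7 were matched by symbol in the RefSeq promoter table (GRCm38.p6); bases upstream of the annotated gene are printed for the 4 matched genes that passed. Alternatives were DESeq2 size factors, library size alone, no filter, 1 CPM in 3 libraries, DESeq2 1.42.0, limma-voom (limma 3.58.1), the replicate number as a block, protein-coding genes only and leaving out each library, and for ratios and shares adding 0.5 counts or not dividing counts by length.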

Additional observations from a re-analysis of the deposited data

How the results depend on the processing

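Of 126 refits of the 9 genes, 120 kept both direction and side of the threshold. Stim1 lost its call without EV_Tm replicate 2, Tmco1 gained one without PBS_Tm replicate 1, and Orai3, never called, changed sign with no filter (-0.0024) and between -0.087 and 0.076 when 1 library was left out. The number of the 9 genes called was 6 under every other setting and 5 to 7 when 1 library was left out, and genes called overall were 7080 to 8013. Leaving out 1 library moved the Stim1 to Stim2 log2 ratio difference between -0.48 and -0.39, that of Tmem38b to Tmem38a between -0.27 and -0.15 and the Orai1 share between -4.28 and -3.02 percentage points. The exact permutation p was then 0.1, with these exceptions. It was 0.2 for Tmem38b to Tmem38a without EV_Tm replicate 1 or 3 and for the Orai1 share without EV_Tm replicate 3. Without division by length the Orai1 share difference was -1.58 points (exact permutation p = 0.2), against -3.59 points with it (0.1). The TRPC and Homer list had 0 genes called with DESeq2 size factors, library size alone, 1 CPM in 3 libraries, the DESeq2 test and protein-coding genes only, and 0 to 1 when 1 library was left out. Uncalled genes that changed sign were Esyt2 (0.016 with library size alone, 0.013 with protein-coding genes, -0.068 to 0.0024 without 1 library), Gramd1c (-0.42 to 0.36) and Jph4 (-0.32 to 0.42); the cause was not tested. Same-numbered libraries did not deviate together (correlations -0.043 to 0.016). The labels state no pairing, and such correlations cannot exclude one. With the replicate number as a block 7737 genes and 6 of the 9 were called, and Pitpnm1 lost its call (edgeR adjusted p = 0.0546). A block of 1 library per group cannot move the ratio differences of -0.44 and -0.22 or the Orai1 share difference of -3.59 points. For these the exact sign-flip permutation p was 0.25, the smallest that 3 pairs allow. Depth limits Orai1 most, at 134 to 231 counts a library.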
